A study of Mus musculus with 9 samples.

Results

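The Hedgehog pathway genes described here are Shh, Ihh, Ptch1, Gas1, Hhip, Smo, Sufu, Gli1, Gli2 and Gli3, taken from a list of names, with no cut on measured values. These 10 genes, of 27573 gene names on the array, had 19 probes. Of these probes, 8, from 6 genes, were bright enough in the tumour cells to be tested. The tested genes were Gas1, Smo, Sufu, Gli1, Gli2 and Gli3. No probe of Shh, Ihh, Ptch1 or Hhip was tested, and their values are given as a description.

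Tumour cell RNA was hybridised to 9 two-colour Agilent arrays, with 5 arrays in the Fzd8-CRD group and 4 in the control group. Fzd8-CRD is a protein that blocks Wnt signalling, made from the ligand-binding (cysteine-rich) domain of a Frizzled receptor. In both groups the cells came freshly isolated from MMTV-Wnt-1 and MMTV-Her2 tumours and were sorted by flow cytometry as GFP-negative cells. The MMTV promoter, from mouse mammary tumour virus, drives the transgene in mammary epithelium. Both tumour models are named for every array, so the models cannot be told apart, and the sources used here do not say what carried the GFP. The treatment field names the inhibitor for the controls too, so what these cells received is unknown here. Age, strain and the pooling of animals are not given. The design text calls the arrays of a group biological replicates.

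Cy5 marked the tumour RNA, and Cy3 marked a pooled reference. Each value below is the log2 ratio of Cy5 to Cy3 unless a single dye is named, so a difference of 1 is a doubling. The labels disagree on what the reference was, so a ratio is read only as a difference between the groups and not as a level. A probe was tested where its Cy5 signal was well above the local background, by the scanner software's own mark, on at least 4 of 9 arrays. Differences are Fzd8-CRD minus control from limma's linear model with its standard error (SE). The p-values are adjusted by the Benjamini-Hochberg method over all 26722 probes tested, and the threshold was 0.05.

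All 4 controls lay on 1 slide. The arrays of treated cells came from 4 different slides and were scanned 367 to 378 days later, so slide, scan day and treatment cannot be told apart. The share of probes well above background in Cy5 was 52.5% to 60.0% on the Fzd8-CRD arrays and 63.8% to 70.8% on the controls. Control replicate 2 stood apart, with correlations of 0.602 to 0.728 with the other arrays, so counts are also given without it. Luminal and basal mammary epithelial markers were present, with 7 of 7 and 6 of 6 genes bright enough to be tested. Markers of other cell types also differed between the groups. All 10 endothelial markers were lower in the Fzd8-CRD group (median difference -2.18), as were 3 of 5 pericyte markers (median -1.54), 2 of 3 erythrocyte markers (median -3.00) and 1 of 9 macrophage markers, Mrc1 (median -0.70). Of 9 fibroblast markers 2 were lower and 3 lay above 0, with a median of -1.21. Of 6 basal markers 1 was higher, Krt5 at 0.80 (limma adjusted p = 0.00683), and 5 lay above 0, with a median of 0.71. Of 7 luminal and 9 lymphocyte markers 0 passed in limma (medians -0.65 and -0.64), with 1 lower in each at an unadjusted p under 0.05. Without control replicate 2 the endothelial, pericyte and erythrocyte counts were the same, 0 macrophage and 1 lymphocyte marker were lower, 2 basal markers were higher, and the fibroblast markers had 1 higher (Pdgfra, 1.198) and 2 lower with a median of -0.78. Over all genes, each by its brightest probe and with all arrays, 6.7% passed as higher and 7.97% as lower. In these bulk samples fewer cells of a type and less RNA per cell cannot be told apart.

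Hedgehog signalling runs from a secreted ligand to the Gli transcription factors. Without ligand, the receptor Ptch1 holds Smo inactive, and Sufu binds the Gli proteins and keeps them from acting as activators. Ligand bound to Ptch1 with the help of surface partners such as Gas1 frees Smo, which acts at the primary cilium, and Gli1, Ptch1 and Hhip are classical genes switched on by the pathway. In the mammary gland, repression of the pathway by Gli3 is known to be needed for the embryonic mammary bud.

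Gas1 and Sufu were higher in the Fzd8-CRD group, by 1.65 and 0.92 on the log2 scale, that is 3.14-fold and 1.89-fold. The Sufu value is that of 1 of its 2 tested probes, and the other, a dim probe, differed by 0.058 (limma adjusted p = 0.693). In Cy5 alone the first of these differed by 0.67 (limma adjusted p = 0.0526), with a Cy3 difference of -0.37. No member passed the test as lower in the ratio. Gli1 was the lowest by its difference, at -0.30, and narrowly missed the threshold. By probes, 2 of 8 passed, both higher, where 14.7% of all 26722 probes passed in either direction. At an unadjusted limma p under 0.05 there were 3 higher and 1 lower, where 14.6% and 17.6% of all probes were. The lower one was Gli1, so that count is not independent of the filter. By genes, each taken by its brightest probe, 2 of 6 were higher, where 6.7% of 18212 genes were. Without control replicate 2 the count was also 2 higher and 0 lower.

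The probes on which these results turn are 60-base sequences, named by the array design and placed on the mm8 mouse genome by the array files. The first 30 bases of each are shown in lower case, 5′ to 3′, because the comparison within Sufu rests on where its probes lie. The 3 Sufu probes lie on the plus strand of chromosome 19 in the order shown.
Sufu A_52_P603184: actggagattaacagcaaacctgtccttcc
Sufu A_51_P396550: ttctgttgacagaagagtttgtagagaaga
Sufu A_52_P340811: tgctgcaatgaacagacttttgtacatttt
Gas1 A_51_P157083: aaagttaccatggtgttgaacaatgcatgt
Gli1 A_51_P518548: ccgggtgctgcctatagccagtgtcctcga
Smo A_51_P258766: aatgtctagtcattttcatagtgccccaca
Gli3 A_51_P171288: tgttctcctctgacaagttacgcttgtata
Whole probes lay at chr19:46508080-46508139, chr19:46536912-46536971 and chr19:46541928-46541987 for Sufu. The Gas1 probe lay at chr13:60184661-60184720 on the minus strand and the Gli1 probe at chr10:126733884-126733943 on the minus strand. The Smo probe lay at chr6:29711235-29711294 and the Gli3 probe at chr13:15520556-15520615, both on the plus strand. No annotation of mm8 was used here, so exon and UTR are not stated for any probe.

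Gas1 encodes a surface protein anchored in the membrane that binds Hedgehog ligands beside Ptch1. Its single probe was well above background on all 9 arrays. On Fzd8-CRD replicates 1 to 5 its log2 ratios were 0.33, 0.63, -0.90, -1.17 and 0.34. On control replicates 1 to 4 they were -2.07, -1.95, -1.71 and -1.48. Every Fzd8-CRD array was above every control, but replicates 3 and 4 lay well below the other treated arrays, which put the SD at 0.82 (n = 5) against 0.26 (n = 4) in the controls. The difference was 1.65 (SE 0.38), with a 95% interval of 0.81 to 2.49 and an adjusted p of 0.0204 by limma.

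The tumour channel alone gave nearly the same value for Gas1. Its log2 Cy5 signal was 11.25, 11.53, 10.19, 9.65 and 11.48 on the Fzd8-CRD arrays and 8.96, 8.72, 9.25 and 9.43 on the controls. The groups did not overlap, and the Cy5 difference was 1.73 (limma adjusted p = 0.0179), where 17.4% of all probes passed in Cy5. With Cy5 scaled to a common median it was 1.23 and did not pass (limma adjusted p = 0.0710). The reference channel differed by -0.083 (limma adjusted p = 0.113), while 57.9% of all probes differed in Cy3 between the slides of the groups. Leaving out Fzd8-CRD replicate 1 or control replicate 3 left ratio differences of 1.53 and 1.68 that no longer passed (limma adjusted p = 0.0520 and 0.0528). Scaling the arrays to a common spread gave 1.27 and also ended the call (limma adjusted p = 0.0899). With the closest pairs of arrays averaged the difference was 1.56 and did not pass (limma adjusted p = 0.0898). Over all 21 alternatives the ratio difference stayed between 1.27 and 1.90.

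**Figure D1:**
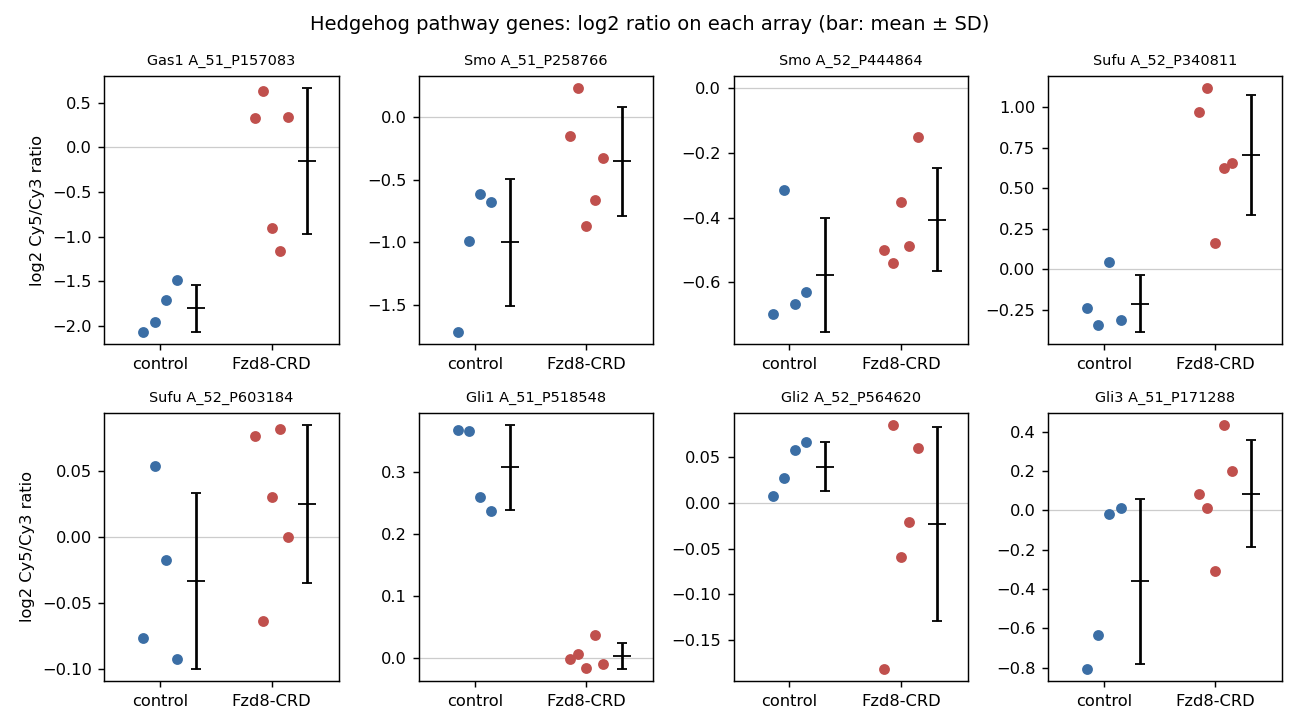
Log2 Cy5/Cy3 ratio of the 8 tested probes on each array, with controls in blue, Fzd8-CRD arrays in red and the bar giving the mean ± SD of each group (n = 4 and n = 5). The groups do not overlap for Gas1, Sufu A_52_P340811 and Gli1, and each panel has its own axis.

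The groups did not overlap in the ratio for 3 of the 8 probes, those of Gas1, Gli1 and Sufu A_52_P340811. Of all tested probes 19.2% showed no overlap. The Gli1 probe met the filter for testing through the controls alone.

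Smo encodes the membrane protein that passes the signal into the cell. Its probe A_51_P258766 was well above background on all arrays. The log2 ratios were -0.15, 0.23, -0.87, -0.66 and -0.33 on Fzd8-CRD replicates 1 to 5 and -1.72, -0.99, -0.62 and -0.68 on control replicates 1 to 4. The lowest treated arrays lay inside the control range, so the groups overlapped. The difference of 0.65 (SE 0.28) did not pass (limma adjusted p = 0.143). Its 95% interval of 0.022 to 1.27 holds differences as large as that of Sufu.

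Other Smo probes gave less. Probe A_52_P444864 spans 1234 bases of the genome with 60 bases of sequence and lies 5643 bases upstream of the first. Of the Fzd8-CRD arrays 2 of 5 had it well above background, of the controls 4 of 4, and it differed by 0.17 (SE 0.13, limma adjusted p = 0.380). In Cy5 alone its difference was -0.068, and with the scanner's own ratio it was -0.71, so its direction is not settled. Probe A_51_P392665 was well above background on no array, with log2 ratios between -0.093 and 0.025.

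Ptch1, the ligand's receptor, had 2 probes, and neither was tested. Probe A_51_P127435, spotted 10 times on each array, was well above background on 3 of 4 controls and on no Fzd8-CRD array. Its log2 ratios ran from -0.10 to 0.020 in the Fzd8-CRD group and from -0.056 to 0.042 in the controls. The groups overlapped.

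The second Ptch1 probe, A_52_P598605, gave -0.18, -0.24, -0.12, -0.37 and -0.050 on Fzd8-CRD replicates 1 to 5 and -0.036, 0.034, -0.027 and 0.36 on control replicates 1 to 4. The groups did not overlap in the ratio, at a mean difference of -0.27. Only 1 array of each group was well above background in Cy5, and the Cy5 groups overlapped with a mean difference of 0.095. Control replicate 4 set that value, with a log2 Cy5 signal of 7.32 against 6.20 to 6.26 on the other controls. Without it the Cy5 difference was 0.37, the groups did not overlap, and the ratio difference was -0.18. The Cy3 reference signal of the same probe was higher on the Fzd8-CRD arrays by 0.41, with all arrays. On control replicate 4 the Cy3 signal was 7.23 against 6.20 to 6.30 on the other controls, so both dyes were high there.

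Hhip encodes a surface protein that binds and holds back the ligands. Neither of its probes was well above background on any array. The mean differences were -0.079 for A_51_P416822 and 0.016 for A_52_P249826. Both sets of arrays overlapped.

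Shh and Ihh, the ligands among the members, were at or near background. Shh, spotted 10 times, was well above background on no array, and its log2 ratios lay between -0.0034 and 0.041 in the Fzd8-CRD group and between 0.061 and 0.086 in the controls. These ranges do not overlap, at a mean difference of -0.052 (SD 0.017, n = 5, and 0.010, n = 4). Ihh was well above background on 3 of 4 controls by probe A_51_P479444 and on 2 of 4 by A_52_P403398, and on no Fzd8-CRD array by either. Mean differences were -0.031 and -0.038, and the groups overlapped in the ratio by both probes. In Cy5 alone they did not overlap by A_51_P479444, at a mean difference of -0.11.

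**Figure D2:**
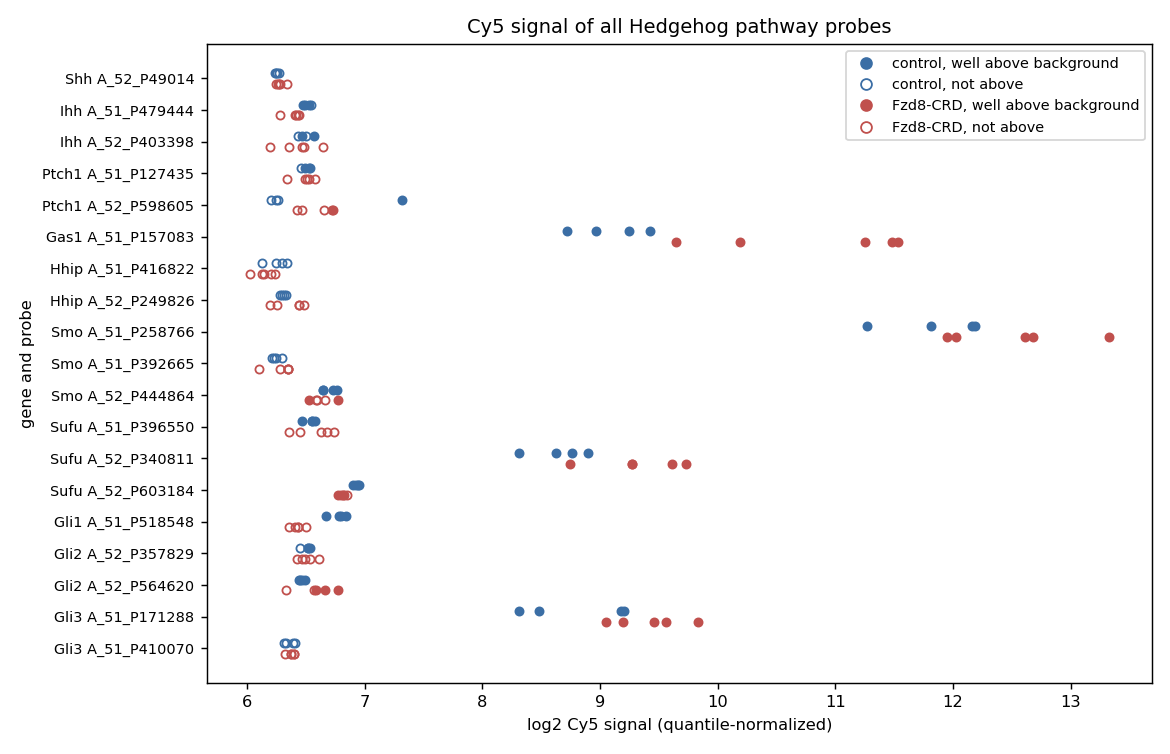
Log2 Cy5 signal (quantile-normalized) of all 19 probes on each array, controls in blue above Fzd8-CRD arrays in red, filled where the spot was well above background. The Fzd8-CRD points lie to the right of all controls for Gas1. They lie to the left of all controls for Gli1, Ihh A_51_P479444 and Sufu A_52_P603184. Of these, Gli1 and Ihh A_51_P479444 were well above background on no Fzd8-CRD array. The share of all probes without overlap in Cy5 is not given here, so these separations are a description only. Positions may be compared within a probe only.

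Sufu encodes the cytoplasmic protein that binds Gli factors and restrains them. Its probes gave different results. Probe A_52_P340811, the most downstream, was well above background on all 9 arrays. The log2 ratios were 0.97, 1.12, 0.16, 0.62 and 0.65 on Fzd8-CRD replicates 1 to 5 and -0.24, -0.34, 0.044 and -0.31 on control replicates 1 to 4. All treated arrays were above all controls, with the third Fzd8-CRD replicate closest to them. The difference was 0.92 (SE 0.19), with a 95% interval of 0.48 to 1.35 and a limma adjusted p of 0.0156. It stayed past the threshold without any 1 array, but not with median centring in place of loess (1.03, limma adjusted p = 0.0543). With the closest pairs of arrays averaged the call was also lost (0.86, limma adjusted p = 0.0706).

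Both channels of this probe differed between the groups. For A_52_P340811 the log2 Cy5 signal was 9.61, 9.74, 8.74, 9.27 and 9.27 on the Fzd8-CRD arrays and 8.76, 8.31, 8.90 and 8.63 on the controls. Replicate 3 fell inside the control range, and the Cy5 difference of 0.67 just missed the threshold (limma adjusted p = 0.0526). Without Fzd8-CRD replicate 3 the Cy5 difference was 0.82 and passed (limma adjusted p = 0.0181). With arrays scaled to a common median it was 0.21. The Cy3 signal was lower on the Fzd8-CRD arrays by 0.37 (limma adjusted p = 2.252e-05). It lay between 8.79 and 8.98 there and between 9.24 and 9.31 on the controls.

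The upstream Sufu probes did not show the rise, but both were dim. The mean log2 Cy5 signal was 6.87 for A_52_P603184 and 6.56 for A_51_P396550, against 9.03 for the downstream probe. The background offset understates differences of dim probes, and whether these could have shown such a rise was not tested. Probe A_52_P603184, which lies 28832 bases upstream of the middle probe, gave ratios between -0.064 and 0.081 on the Fzd8-CRD arrays and between -0.093 and 0.054 on the controls. It differed by 0.058 (SE 0.094, limma adjusted p = 0.693), with a 95% interval of -0.15 to 0.27 that lies below the interval of the downstream probe. Its signal stood well above background on 3 of 5 arrays of treated cells and on 4 of 4 controls. In Cy5 alone its controls were all higher, by 0.12 (limma adjusted p = 0.357), and its Cy3 signal was lower on the Fzd8-CRD arrays by 0.24 (limma adjusted p = 9.947e-04).

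The middle probe, A_51_P396550, lies 5016 bases upstream of A_52_P340811. It was well above background on 3 of 4 controls and on no Fzd8-CRD array, so it was not tested, and its mean difference was 0.049. The array files tie the upstream and the middle probe to a RefSeq transcript of Sufu and the downstream probe to a cDNA clone record. Of their 60 bases, 48.3%, 40.0% and 35.0% are G or C in the order shown. Whether the probes read the same transcripts was not tested.

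**Figure D3:**
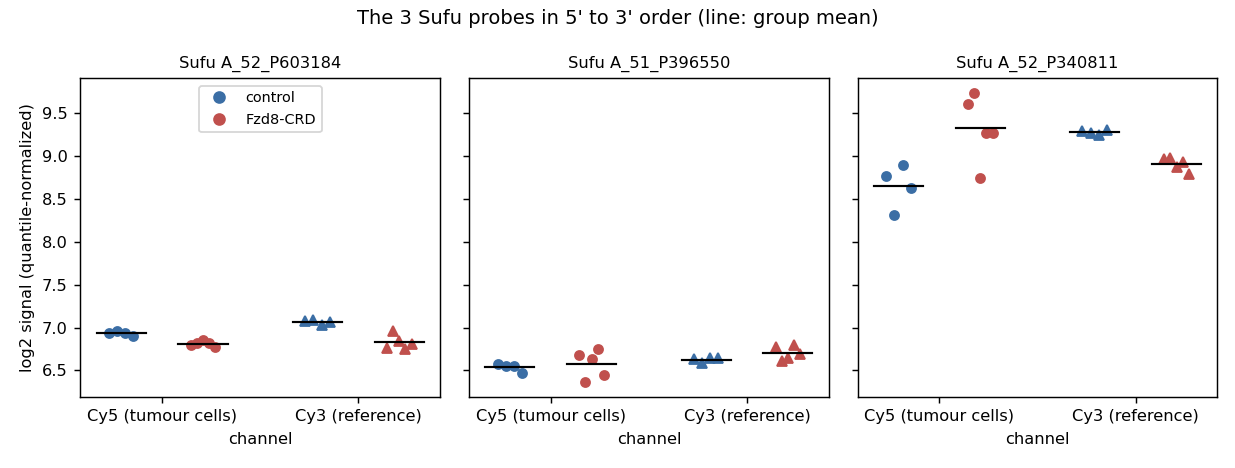
Log2 signal of the 3 Sufu probes on each array in Cy5 (tumour cells, circles) and Cy3 (reference, triangles), with controls in blue, Fzd8-CRD arrays in red and lines at the group means. At A_52_P340811 the Cy5 mean is 9.33 against 8.65 in the controls while the Cy3 mean is 8.91 against 9.28, and levels of different probes are not comparable.

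Gli1 encodes a Gli activator and is itself a gene the pathway switches on. Its probe, spotted 10 times on each array, stood well above background on 4 of 4 controls but on 0 of 5 arrays of treated cells. The log2 ratios were -0.0016, 0.0061, -0.016, 0.036 and -0.011 on Fzd8-CRD replicates 1 to 5 and 0.37, 0.37, 0.26 and 0.24 on control replicates 1 to 4. The treated arrays clustered at 0 and all controls lay above them. The difference was -0.30 (SE 0.091), with a limma adjusted p of 0.0511. The probe met the filter for testing through the controls alone, so a call as lower is not independent of that filter. Since no treated array was well above background, the size of the difference is uncertain. The median SD between spots of one array was 0.11.

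In Cy5 alone Gli1 was lower in the Fzd8-CRD group by a difference of -0.35 (limma adjusted p = 0.0342), with no overlap. The same limit from the filter holds for this call. That call was lost without any 1 array other than Fzd8-CRD replicate 2 and control replicate 2, at differences of -0.38 to -0.33. With Cy5 scaled to a common median the difference was -0.10 (limma adjusted p = 0.562). The Cy3 difference was -0.15 (limma adjusted p = 0.0162). In the ratio Gli1 passed as lower under 7 alternatives, with differences from -0.99 to -0.26. Beside these values, all endothelial markers, 3 of 5 pericyte markers and 2 of 9 fibroblast markers passed as lower. Summed Cy5 intensity of the 10 endothelial markers was 1717 to 4456 on the Fzd8-CRD arrays and 7779 to 11080 on the controls. For the 5 pericyte markers it was 1527 to 3569 against 2970 to 7130, and for the 9 fibroblast markers 20220 to 51650 against 23100 to 139500, ranges that overlap. For the 6 basal markers it was 128500 to 302200 against 75210 to 158700. Each of these markers was well above background on at least 1 array, and their part in the values of Gli1, Gas1, Sufu or Kif7 was not tested.

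Gli3 encodes the main repressor of the family. Its probe A_51_P171288 was well above background on all arrays. The log2 ratios were 0.081, 0.014, -0.31, 0.43 and 0.20 on Fzd8-CRD replicates 1 to 5 and -0.81, -0.64, -0.018 and 0.013 on control replicates 1 to 4. The treated range began below the upper controls, so the groups overlapped. The difference of 0.45 (SE 0.21) did not pass (limma adjusted p = 0.182), with an interval of -0.034 to 0.93. The Cy5 difference was 0.63 (limma adjusted p = 0.0905). A second probe 2773 bases upstream, A_51_P410070, was well above background on no array and differed by 0.048.

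Gli2 encodes the main activator downstream of Smo. Probe A_52_P564620 stood well above background on 3 of 5 arrays of treated cells and on 2 of 4 controls, and its difference was -0.063 (SE 0.098, limma adjusted p = 0.685), with an interval of -0.28 to 0.16. It was 0.12 in Cy5 alone (limma adjusted p = 0.462) and 0.19 in the reference (limma adjusted p = 0.00928). Probe A_52_P357829 was not tested, being well above background in Cy5 on 3 of 4 controls and no Fzd8-CRD array. Its ratio differed by 0.41 while its Cy5 difference was 6.434e-05. With Cy5 scaled to a common median the first probe's Cy5 difference was 0.42 (limma adjusted p = 0.0502).

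**Figure D4:**
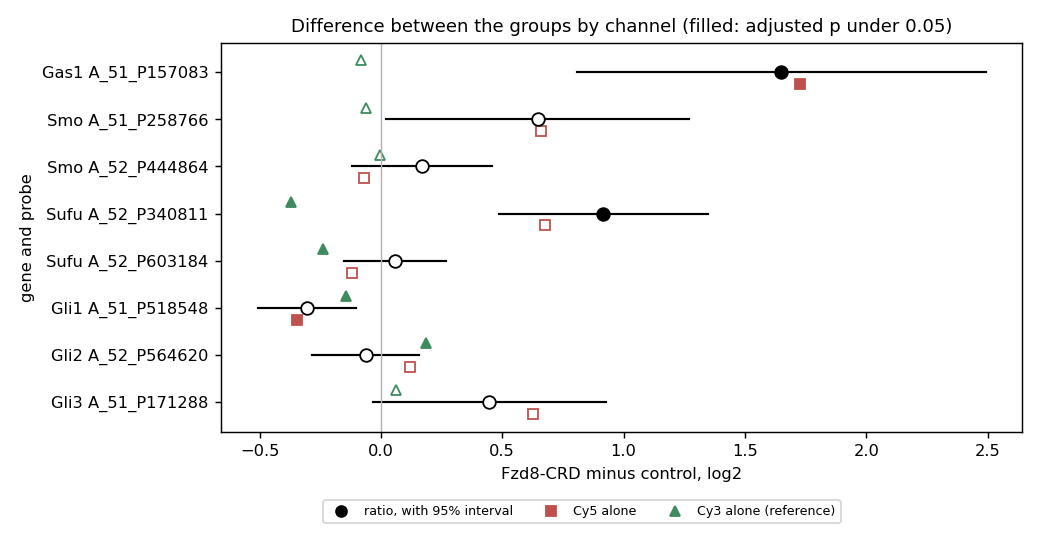
Differences of the 8 tested probes (log2, Fzd8-CRD minus control), as the ratio with its 95% interval (circles), Cy5 alone (squares) and Cy3 alone (triangles), filled where the limma adjusted p is under 0.05. Gas1 passes in the ratio and in Cy5, Sufu A_52_P340811 in the ratio (0.92) with Cy3 at -0.37, and Gli1 in Cy5 (-0.35) but not in the ratio.

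Over the 6 genes, Cy5 alone gave 1 higher (Gas1) and 1 lower (Gli1), where 10.1% of all genes were higher and 8.75% lower in Cy5. Gli1 was admitted to the test by its signal in the controls alone. The summed Cy5 intensity covers all 10 members, tested or not, each by its brightest probe. It was 6633 to 15250 on the Fzd8-CRD arrays and 4294 to 6875 on the controls, which overlap. Intensities were summed on the linear scale, so the brightest probes weigh most. These are Smo A_51_P258766 (mean log2 Cy5 signal 12.23) and then Gas1 (10.05). Smo made up most of the sum and did not pass in Cy5 (limma adjusted p = 0.153).

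Other genes of the pathway were grouped by role, each by its brightest tested probe. Among the cytoplasmic and ciliary regulators 19 genes were tested, and 2 were higher and 0 lower in the ratio, where 6.7% of all genes were higher and 7.97% lower. Their median difference was 0.33 and 18 of 19 lay above 0, while the median over all genes was -0.075 and 42.8% of them lay above 0. Csnk1a1 (0.011) and Gsk3b (0.0077) were close to 0. Csnk1a1, Iqce, Arl13b and Cul3 also had a tested probe below 0, the lowest at -0.75 (Csnk1a1). Further tested probes of the other regulators lay above 0. These genes were named after their values were seen. With the tested probes of each gene averaged the list's median was also 0.33. At an unadjusted limma p under 0.05 there were 7 higher and 0 lower, where 14.4% and 17.9% of all genes were. The list's median was above 0 under all 21 alternatives, between 0.25 and 0.38, but these reuse the same arrays. Array by array, the list's median ratio relative to each gene's mean overlapped between the groups. It was 0.014 to 0.37 on the Fzd8-CRD arrays and -0.50 to 0.021 on the controls. Without Fzd8-CRD replicate 3, 5 regulators were higher and 0 lower, where 6.05% of all genes were higher.

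Kif7, a kinesin at the tip of the cilium that works with Sufu in restraining Gli factors, had the smallest p of the list. Its log2 ratios were -0.48, -0.43, -0.99, -0.42 and -0.30 on Fzd8-CRD replicates 1 to 5 and -1.65, -1.69, -1.56 and -1.70 on control replicates 1 to 4. The groups did not overlap and the controls lay close together. The difference was 1.13 (SE 0.15, limma adjusted p = 0.00364), and in Cy5 alone it was 0.90 (limma adjusted p = 0.00908) with Cy3 at 0.010. With arrays scaled to a common spread it was 0.66 and did not pass (limma adjusted p = 0.0562).

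Efcab7, which anchors the ciliary complex of Evc and Evc2 below Smo, was higher by 0.72 in the ratio (SE 0.15, limma adjusted p = 0.0149). Its Cy5 difference was 0.042 (limma adjusted p = 0.870) and its Cy3 difference -0.40, and the ratio difference turned to -0.17 with arrays scaled to a common spread. The call was also lost with the scanner's own ratio (0.21) and with no background correction (0.43). Prkaca, the catalytic subunit of the kinase that marks Gli proteins for processing, differed by 0.89 (SE 0.30, limma adjusted p = 0.0729), and Evc by 0.80 (SE 0.29, limma adjusted p = 0.0894). Without Fzd8-CRD replicate 3 both passed, at 1.06 and 1.02. In Cy5 alone 4 of 19 regulators were higher, Kif7, Ift172, Prkaca and Evc2, and 1 was lower, Gsk3b. Of all genes 10.1% were higher and 8.75% lower in Cy5. The Cy5 call of Prkaca (0.84) was lost without any 1 array other than Fzd8-CRD replicate 3 and control replicate 2. Ift172, Evc2 and Gsk3b are named because that count is small, after their values were seen.

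Of the genes that make and release the ligands 4 of 7 were tested. Of these 0 passed in either direction, where 6.7% of all genes were higher and 7.97% lower. At an unadjusted limma p under 0.05 there were 1 higher and 0 lower, where 14.4% and 17.9% of all genes were. The median difference of these 4 was -0.039. Disp1, which releases the ligand from the cell, differed by 0.60 (SE 0.20, limma adjusted p = 0.0718) and was higher in Cy5 alone by 0.80 (limma adjusted p = 0.0199). Without Fzd8-CRD replicate 3 its ratio difference was 0.70 and passed. Dhh, the third ligand, differed by -0.46 (SE 0.24, limma adjusted p = 0.216), with -0.0060 in Cy5. Without control replicate 1 its ratio difference was -0.70 and passed.

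Receptors and surface partners held 5 tested members of 7, and 0 passed. At an unadjusted limma p under 0.05 there were 1 higher and 0 lower, where 14.4% and 17.9% of all genes were. Gpc3, a glypican that competes with Ptch1 for ligand, differed by 0.94 in the ratio (SE 0.41, limma adjusted p = 0.145) and was higher by 1.92 in Cy5 alone (limma adjusted p = 0.00292). Its ratio difference passed with no background correction (1.47, limma adjusted p = 0.0175) and with arrays scaled to a common spread (2.67, limma adjusted p = 0.0452), and was 0.43 with the scanner's ratio. Boc, a ligand-binding partner like Gas1, differed by 0.53 (SE 0.36, limma adjusted p = 0.331). In Cy5 alone Boc differed by 0.84 and did not pass (limma adjusted p = 0.129). That difference passed in 1 of 12 alternatives, without Fzd8-CRD replicate 3 (1.14). The other tested Boc probe differed by -0.086 in the ratio. In Cy5 alone Gpr161 was the 1 lower gene, at -0.77 (limma adjusted p = 0.0460), with Cy3 lower by a difference of -0.80. Of all genes 8.75% were lower in Cy5. Gpr161 was named after its values were seen.

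**Figure D5:**
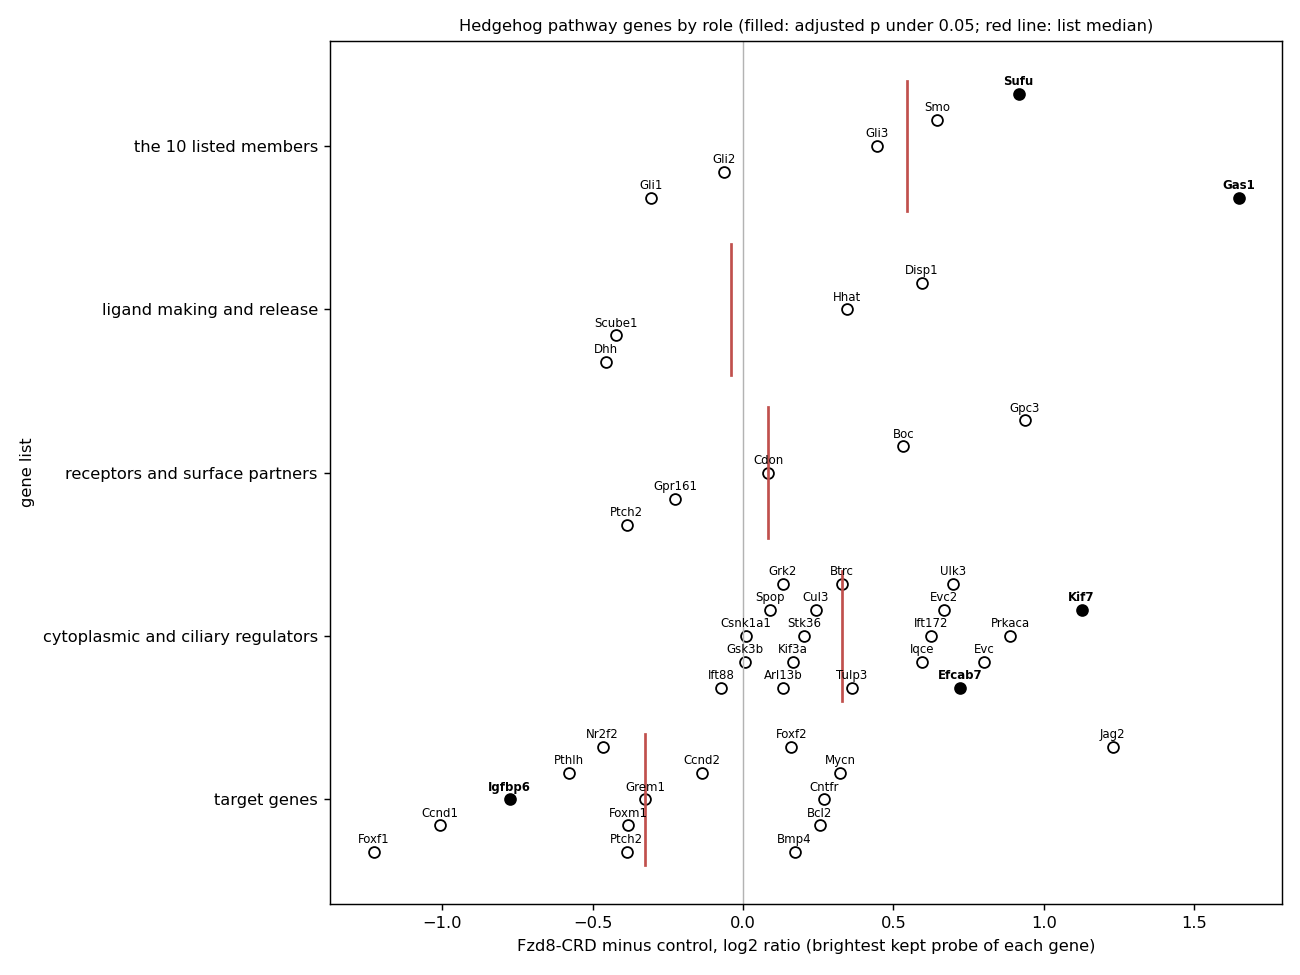
Fzd8-CRD minus control log2 ratio for each tested pathway gene, taken by its brightest probe and grouped by role, filled where the limma adjusted p is under 0.05, with a red line at each list's median. The regulators lie mostly to the right of 0 (18 of 19), and target genes lie on both sides with 6 of 15 above 0. Over all genes 42.8% lay above 0.

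Genes that Hedgehog signalling is known to switch on in 1 tissue or another lay on both sides of 0. Of 18 listed, 15 were tested, with 0 higher and 1 lower, where 6.7% of all genes were higher and 7.97% lower. Of the 15, 6 lay above 0, where 42.8% of all genes did. The median difference was -0.33, against -0.075 over all genes. Without control replicate 2 the targets' median was -0.12. The lower gene was Igfbp6, which encodes a binding protein of insulin-like growth factors. Its log2 ratios were -2.25, -1.83, -2.49, -2.22 and -2.80 on Fzd8-CRD replicates 1 to 5 and -1.73, -1.04, -1.63 and -1.77 on control replicates 1 to 4. The groups did not overlap, by a small margin. The difference was -0.78 (SE 0.22, limma adjusted p = 0.0428), and it no longer passed without any 1 array other than Fzd8-CRD replicate 2, at -0.85 to -0.61. In all, the call was lost in 14 of 21 alternatives. In Cy5 alone Igfbp6 differed by -0.96 (limma adjusted p = 0.0289), and this call was lost without Fzd8-CRD replicate 1 or 3 or any 1 control, at -1.004 to -0.89. Without control replicate 1 the count was 2 lower targets, neither of them Igfbp6 (-0.84, limma adjusted p = 0.0547).

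Jag2, a Notch ligand, differed by 1.23 in the ratio (SE 0.42, limma adjusted p = 0.0765), passed with the scanner's ratio (1.65, limma adjusted p = 0.0330) and was higher by 2.06 in Cy5 alone (limma adjusted p = 0.0104). With Cy5 scaled to a common median the Cy5 calls of Jag2 (1.54), Disp1 (0.46) and Prkaca (0.34) were lost. Foxf1, a forkhead factor, differed by -1.23 (SE 0.83, limma adjusted p = 0.332), a value that was -0.12 without control replicate 2. In Cy5 alone 1 of 15 targets was higher, Jag2, and 2 were lower, Igfbp6 and Ccnd1. The shares of all genes in Cy5 were 10.1% higher and 8.75% lower. Ccnd1, the cell-cycle gene for cyclin D1, is also switched on by Wnt signalling. It differed by -1.01 in the ratio (SE 0.33, limma adjusted p = 0.0717) and by -1.30 in Cy5 (limma adjusted p = 0.0248), and was named after its values were seen.

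RefSeq promoter windows on GRCm38.p6, from 250 bases before to 50 bases after each gene's start, were at hand for 8 members, all but Gli1 and Shh. The Gli consensus GACCACCCA, searched on both strands, was in 0 of 8 member windows and in 0.253% of 32851 windows in all. The core of the TCF site through which Wnt signalling acts, CTTTGAA or CTTTGAT on either strand, was in 0 of 8 and in 8.65% of all windows. These matches describe the letters of the windows only.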

How the data were processed

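Per the file headers, Agilent Feature Extraction 9.5.3.1 wrote the spot intensity values used (mean foreground and median local background in either dye). It also wrote, per the file headers, a log10 ratio that is background-corrected and dye-normalized. The authors' deposited table gives each array a linear ratio. On the log2 scale it matched the scanner's ratio with a correlation of 1 on all arrays, so scale and direction are known, and its medians were 0.835 to 0.956.

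Background was corrected here with normexp (offset 50) in limma 3.58.1 (R 4.3.3), followed by loess within arrays with control spots at weight 0. An array held 45018 spots, 1639 of them controls. In all, 1229 outlier spots were left out and 0 were saturated. Averaging spots gave 41174 probes. Of these, 26722 (64.9%) passed a filter of 4 or more arrays with Cy5 well above background and no missing value. Single dyes were quantile-normalized. The offset understates differences of dim probes.

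Limma's moderated statistics compared the groups, with Benjamini-Hochberg adjustment over all tested probes, after a trial of the script on simulated data. Replicate numbers follow accession order. Gene names came from accessions (23366 probes), symbols (6739), synonyms (2918) or the file alone (8151). All probes of the 10 genes are described. From each pathway list, the text names genes past the threshold and the 2 largest other differences. Members and lists were chosen with earlier results of these data known. The number of arrays limits the precision. Alternatives were offset 16 or no background correction, the scanner's ratio, the deposited table, median centring, scaling, other filters, array weights, the slide as a random block and leaving out each array. Averaging the closest arrays was added after seeing the data.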

Additional observations from a re-analysis of the deposited data

Results flagged for a closer look

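In 3 of 38 groups tested over the 19 member probes, 1 array lay far from the others of its group by Dixon's limit, and chance flags about 1 in 20 groups. For Ihh A_51_P479444 control replicate 4 was the lowest, at a log2 ratio of -0.030 with the nearest control at 0.022. For Ptch1 A_51_P127435 Fzd8-CRD replicate 4 was the lowest, at -0.10 with the nearest at -0.0090. For Sufu A_51_P396550 Fzd8-CRD replicate 2 was the lowest, at -0.22 with the nearest at -0.059. None of these 3 probes was tested between the groups, since each was well above background on only 3 of 9 arrays.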

How the results depend on the processing

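Over the member and named pathway values, 337 ratio values kept their direction and their side of the threshold, 26 lost a call, 24 gained one and 4 reversed. In Cy5 alone 187 kept both, 26 lost a call, 6 gained one and 9 reversed. The cause of these changes was not tested. The 3917 probes past the threshold became 991 with median centring, 2543 with the brightest probe per gene (fewer probes tested), 11025 with array weights, 8031 with the slide as a random block (consensus correlation -0.16) and 510 with the closest pairs averaged (fewer arrays). Leaving out 1 array gave 1894 (control replicate 3) to 4618 (control replicate 2), and 2765 to 4777 in Cy5. Among called probes 46.4% were higher, against 55.5% with the scanner's ratio and 56.4% with the deposited table. Of the members, 2 were higher and 0 lower. Lower became 1, Gli1, with offset 16, no background correction, the scanner's ratio, the deposited table, no filter, array weights and the slide block. In the main fit Gli1 was admitted to the test by the controls alone. Higher became 1 with median centring and with scaling, and 0 with the closest pairs averaged (limma, 2 higher and 1 lower at an unadjusted p under 0.05). Without 1 array it was 1 to 2. Cy5 gave 1 higher and 1 lower. Median scaling gave 0 and 0 (limma, 2 higher and 0 lower unadjusted), and the scanner's processed red signal 3 and 2. Without 1 array these were 1 to 2 and 0 to 1. Reversed ratio values were 0.019 for Gli2 A_52_P564620 (no background correction), -0.71 for Smo A_52_P444864 (scanner's ratio and deposited table) and -0.17 for Efcab7 (scaling). In Cy5 they were 0.095 for Smo A_52_P444864 and -0.076 for Efcab7 (median scaling), and -0.27 for Efcab7 (processed red signal). With 1 array left out, Cy5 values ran from -0.16 to 0.10 for Dhh, -0.060 to 0.12 for Efcab7 and -1.15 to 0.15 for Foxf1. No paired analysis was possible because the replicate numbers follow accession order and pair no arrays. Dim spots limit Shh, Ihh, Ptch1, Hhip and Gli2 most, and also the upstream and middle Sufu probes.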
